A study of Mus musculus with 9 samples.

Results

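Complement genes of 4 roles were followed through mouse lung transplantation. They were C3, C4b and Cfb, which feed the cascade, C6, which belongs to its terminal pore, the receptors C3ar1 and C5ar1, and the regulators Serping1, Cd55 and Cd59a. They were chosen by name, and all 9 are present among the 23944 genes of the deposited tables. Of these, 8 passed a filter on low counts that kept 15834 genes. Cfb did not pass and was not tested.

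RNA came from whole left lungs of adult wild-type mice, in 3 groups of 3 libraries. Naive lungs were from C57BL/6 mice listed as controls. Cold-ischemia grafts were C57BL/6 left lungs stored for 24 h at 0 °C, placed in Balb/C recipients and given 2 h of reperfusion. Shock grafts had the same storage, transplantation and reperfusion, after donors had been held for 4 h in hypovolemic shock at a mean arterial pressure of 15 ± 5 mmHg and had recovered for 20 h. The titles number the lungs and do not name animals, so p-values measure the spread between these samples. RNA of donor cells and of recipient cells that had entered a graft was not told apart, and in whole lungs fewer cells of a type and less RNA per cell cannot be told apart.

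Complement is a cascade of plasma proteins that is set off by antibody, by sugar-binding lectins or by slow spontaneous turnover of C3. Its pathways meet at the cleavage of C3 and C5, which releases the peptides C3a and C5a and can end in a pore of C5b to C9 in the target membrane. The liver makes most circulating complement, alveolar type 2 cells and macrophages of the lung make some, and receptors for C3a and C5a are carried mainly by myeloid cells.

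Total counts ran from 18913487 to 34986276 per library. Markers of alveolar type 2 cells summed to between 19043 and 27440 CPM (read counts scaled to library size) in the 9 libraries, and 8 hepatocyte markers to between 2.17 and 7.62 CPM. For 2 graft libraries, cold-ischemia replicate 2 and shock replicate 3, the titles give one group and the authors' deposited tables the other. The titles set the groups, except where the grouping of the tables is named, and the calls of the 8 tested genes are given both ways where they differ. The naive libraries, all 3, carry in their labels a further sample identifier that is not among those of the 9 samples, and the grafts do not. In every comparison with naive lungs, batch and group therefore cannot be told apart.

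The promoters of C5ar1, C3ar1 and C3 are shown because both receptor genes rose in the grafts while C3, the source of C3a, did not pass the test. Each sequence holds 250 bases before and 50 bases after the gene's start in RefSeq annotation on build GRCm38.p6. All are on the minus strand and are printed 5′ to 3′. They lie at chr7:16259289-16259588 for C5ar1, chr6:122856108-122856407 for C3ar1 and chr17:57228087-57228386 for C3. Capitals mark matches, on either strand, to TTCNNNGAA (the GAS motif of STAT factors), TTGCNNAA (C/EBP) or GGG and CC with any 5 bases between them (NF-kB).
C5ar1: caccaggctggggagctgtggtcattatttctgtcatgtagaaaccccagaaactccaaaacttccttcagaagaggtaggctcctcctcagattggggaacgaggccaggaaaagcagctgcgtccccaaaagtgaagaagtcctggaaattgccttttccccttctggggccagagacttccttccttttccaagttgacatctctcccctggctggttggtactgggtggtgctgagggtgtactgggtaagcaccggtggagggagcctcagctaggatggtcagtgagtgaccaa
C3ar1: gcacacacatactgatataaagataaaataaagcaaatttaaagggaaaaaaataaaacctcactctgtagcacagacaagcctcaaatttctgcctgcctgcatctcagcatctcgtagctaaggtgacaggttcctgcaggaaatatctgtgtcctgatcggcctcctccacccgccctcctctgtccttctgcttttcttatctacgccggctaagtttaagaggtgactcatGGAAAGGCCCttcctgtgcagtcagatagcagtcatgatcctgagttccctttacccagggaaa
C3: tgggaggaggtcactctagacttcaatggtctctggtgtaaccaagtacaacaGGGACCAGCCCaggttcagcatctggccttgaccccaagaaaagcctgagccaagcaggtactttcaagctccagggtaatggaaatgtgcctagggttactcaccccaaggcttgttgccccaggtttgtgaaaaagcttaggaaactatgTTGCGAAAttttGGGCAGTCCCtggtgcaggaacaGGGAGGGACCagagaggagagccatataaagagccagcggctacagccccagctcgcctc

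The C5ar1 window held none of the 3 motifs. The deposited tables place the start of C5ar1 at 16259540, so most of this window lies inside the gene as placed there. Whether the bases before that start hold a motif was not tested. The C3ar1 window held 1 NF-kB match, from 14 to 5 bases before the start. The C3 window held a C/EBP match from 45 to 38 bases before the start, and 4 NF-kB matches of which a pair overlap. Of 32851 promoters of the same length, 50.8% held the NF-kB letters, 10.8% the C/EBP letters and 8.30% the GAS letters. A match says only that these letters are present in the window. Promoter entries were found for 6 of the 9 genes. The windows of Cd55 and Cd59a held NF-kB matches alone and that of C6 held none of the 3 motifs.

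Both receptor genes were higher in the grafts than in naive lungs, and none of the other 6 tested genes passed the test in this comparison. Of the 8 tested, 2 were higher and 0 were lower at an adjusted p under 0.05 (edgeR's quasi-likelihood test over all genes), when 41.8% of all tested genes passed in either direction, 22.1% higher and 19.7% lower. The 2 of 8 that were higher are a share near the 22.1% of all genes, so the count is no result about the 8 genes. The median log2 fold change of the 8 genes was 0.01, and that of all tested genes was -0.05.

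C5ar1 encodes the receptor of C5a, which draws neutrophils and monocytes into tissue and activates them. It had 13.4, 16.2 and 17.5 CPM in naive lungs, 62.6, 84.5 and 101 CPM in cold-ischemia grafts, and 142, 88.2 and 51.6 CPM in shock grafts. Every graft lay above every naive lung, as for 20.9% of all tested genes, and the lowest graft was a shock graft. The level was 5.61-fold higher in the 6 grafts (log2 fold change 2.49 ± 0.31 SE, adjusted p = 0.000121, edgeR), and it was higher in 6 of 6 grafts. C5ar1 is a protein-coding gene on the minus strand of chromosome 7, at 16246743 to 16259540 of mm10.

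C3ar1 encodes the receptor of C3a and is carried by macrophages, mast cells and other myeloid cells. Its levels were 4.35, 4.89 and 5.39 CPM in naive lungs, 12.3, 12.3 and 6.83 CPM in cold-ischemia grafts, and 14.3, 17.2 and 7.32 CPM in shock grafts. All 6 grafts were above the naive lungs, as for 20.9% of all tested genes, with cold-ischemia replicate 3 and shock replicate 3 nearest to them. The level was 2.39-fold higher in the grafts (log2 fold change 1.25 ± 0.29 SE, adjusted p = 0.00597, edgeR). The gene lies on chromosome 6 at 122847138 to 122856161 of mm10, on the minus strand.

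Neutrophil markers were higher in the grafts, while markers of monocytes and macrophages changed in both directions. All 12 neutrophil markers were higher in the grafts, and their summed level was 61.2 to 86.8 CPM in naive lungs and 1133 to 3172 CPM in the 6 grafts. None of the 12 was at 0 in any library. Of 11 monocyte and macrophage markers, Cd14, Ly6c2 and Cd68 were higher and Ccr2 and Cx3cr1 lower. Cd14, a co-receptor for bacterial lipopolysaccharide, had 23.0 to 25.2 CPM in naive lungs and 460 to 916 CPM in grafts (log2 fold change 4.73 ± 0.22, adjusted p = 4.38e-07, edgeR), and Cx3cr1 had 10.6 to 13.9 CPM and 0.747 to 5.44 CPM. The 11 summed to 6065 to 6868 CPM in naive lungs and 4948 to 7983 CPM in grafts, of which Lyz2 alone made 5743 to 6522 CPM and 3575 to 7081 CPM. Their part in the rise of C5ar1 and C3ar1 was not tested.

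**Figure D1:**
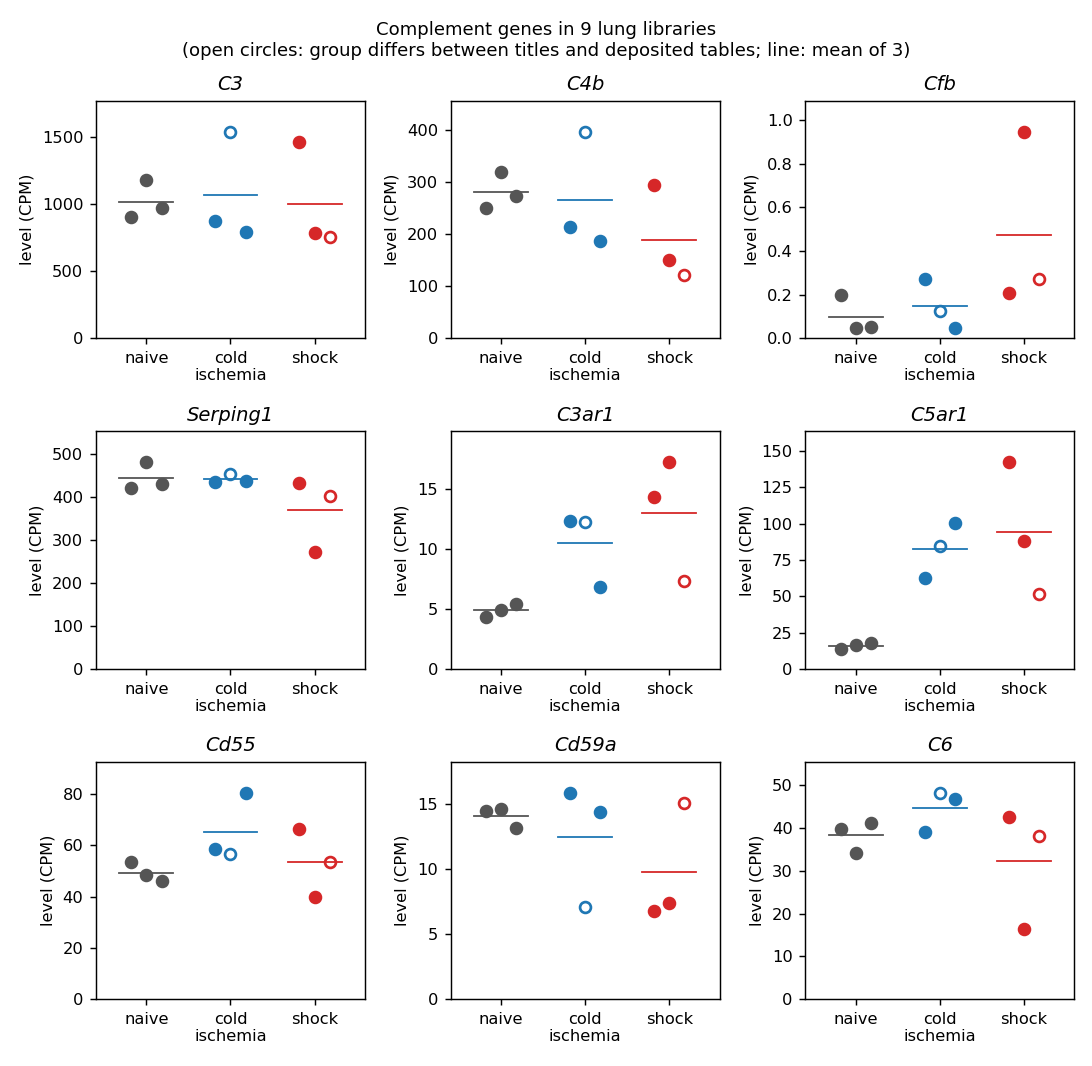
Level in CPM (vertical axes, from 0) of the 9 complement genes in each library, by group of the titles (horizontal axes), with a line at the mean of 3 libraries. Open circles are the 2 graft libraries whose group differs between titles and deposited tables. C5ar1 and C3ar1 lie higher in all 6 grafts than in the naive lungs, and Cd59a lies between 6.82 and 7.37 CPM in 3 grafts, 1 of them an open circle.

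C3, the component on which the pathways converge, was among the most abundant of these transcripts and showed wide spread among grafts. It had 902, 1180.1 and 974 CPM in naive lungs, 872, 1540.5 and 792 CPM in cold-ischemia grafts, and 1467, 782 and 753 CPM in shock grafts. Of the 6 grafts, 2 lay above all naive lungs and the other 4 below them. The mean over the grafts did not differ from naive lungs beyond this spread (log2 fold change 0.02 ± 0.27 SE, adjusted p = 0.958, edgeR).

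C4b encodes C4, which forms the C3-cleaving enzyme of the classical and lectin pathways together with C2. It had 251, 321 and 274 CPM in naive lungs, 214, 397 and 187 CPM in cold-ischemia grafts, and 295, 150 and 121 CPM in shock grafts. The highest graft was again cold-ischemia replicate 2, and shock replicate 1 was the next. The change in the grafts was -0.33 ± 0.30 on the log2 scale (adjusted p = 0.392, edgeR). C4a, a near copy of C4b, was listed with 4 to 20 reads per library, and the sources used here do not say how reads shared by the copies were counted.

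Cfb encodes factor B, which supplies the protease of the alternative pathway's C3-cleaving enzyme. It was counted with 7, 1 and 2 reads in naive lungs, 6, 3 and 1 reads in cold-ischemia grafts, and 5, 19 and 6 reads in shock grafts. Shock replicate 2 had the most reads, and the other grafts overlapped the naive lungs. Without the filter on low counts the change in the 6 grafts was 1.31 ± 0.83 on the log2 scale and did not pass (adjusted p = 0.272, edgeR). In GENCODE M21, 2246 of the 2825 exon bases of Cfb (79.5%) are shared with exons of Gm20547 on the same strand, a gene that was not analysed here. None of the other 8 genes shares exon bases with another gene of its strand in that annotation. The share of reads that the counting of the deposited tables gave to Cfb under this overlap was not tested, so its low counts are not read as a low level.

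C6 encodes a subunit of the terminal pore. It had 39.7, 34.0 and 41.0 CPM in naive lungs, 39.0, 48.1 and 46.7 CPM in cold-ischemia grafts, and 42.4, 16.4 and 38.2 CPM in shock grafts. All grafts but shock replicate 2 lay between 38.2 and 48.1 CPM. The change in the grafts was -0.01 ± 0.24 on the log2 scale (adjusted p = 0.978, edgeR). Shock replicate 2 was also the lowest library for 10 of 12 endothelial markers, with a sum of 2890 CPM against 4196 to 5087 CPM in the other libraries, and for 7 of 12 fibroblast markers, with a sum of 2262 CPM against 2744 to 8398 CPM. The fibroblast markers Pdgfra (520 CPM) and Dcn (188 CPM) were not low in it. The part of these in its C6 level was not tested.

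Among the regulators, Serping1 encodes the C1 inhibitor, a serine protease inhibitor that stops C1r, C1s and the lectin pathway proteases. It had 421, 480 and 430 CPM in naive lungs, 434, 454 and 437 CPM in cold-ischemia grafts, and 431, 271 and 402 CPM in shock grafts. Cold-ischemia grafts lay inside the naive range, and shock replicate 2 was the lowest library. The change in the grafts was -0.14 ± 0.15 on the log2 scale (adjusted p = 0.494, edgeR).

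Cd55 encodes decay-accelerating factor, a membrane protein that takes C3-cleaving enzymes apart. Its levels were 53.5, 48.3 and 46.1 CPM in naive lungs, 58.5, 56.7 and 80.3 CPM in cold-ischemia grafts, and 66.4, 40.0 and 53.6 CPM in shock grafts. The 3 cold-ischemia grafts were all above the naive lungs and the shock grafts overlapped them. In the 6 grafts the change was 0.26 ± 0.17 on the log2 scale (adjusted p = 0.258, edgeR). Gm16083, on the opposite strand, had 0 to 8 reads per library, and the labels do not say whether strand was kept.

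Cd59a encodes a membrane protein that blocks assembly of the terminal pore. It had 14.5, 14.6 and 13.2 CPM in naive lungs, 15.9, 7.13 and 14.4 CPM in cold-ischemia grafts, and 6.82, 7.37 and 15.1 CPM in shock grafts. Levels near 7 CPM were thus found in cold-ischemia replicate 2 and in shock replicates 1 and 2, and levels at or near the naive range in the other 3 grafts. The change over the 6 grafts was -0.35 ± 0.29 on the log2 scale (adjusted p = 0.358, edgeR). With the grouping of the tables the same comparison gave -0.44 ± 0.12 (adjusted p = 0.0111, edgeR), when 46.4% of all tested genes passed, and over 16 alternative settings the adjusted p ran from 0.0111 to 0.545.

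Measured against naive lungs one graft group at a time, the receptors were again the tested genes that passed in edgeR under the titles. These comparisons share the naive libraries with each other and with the comparison above. In cold-ischemia grafts 2 of 8 genes were higher and 0 lower, against 30.6% of all tested genes called. C5ar1 was 5.25-fold higher (log2 fold change 2.39 ± 0.33 SE, adjusted p = 0.000373, edgeR) and C3ar1 2.15-fold higher (1.10 ± 0.32 SE, adjusted p = 0.0253). The call of C3ar1 was lost without any 1 of naive replicates 1, 2 and 3 or cold-ischemia replicates 1 and 2, with log2 fold changes of 1.02, 1.10, 1.18, 0.97 and 0.98. The adjusted p of these 5 fits ran from 0.0537 to 0.0891, and that of all 17 alternatives from 0.00476 to 0.0891. Cd55 had no overlap with naive lungs but did not pass (0.40 ± 0.20, adjusted p = 0.156), and 25.1% of all tested genes lay wholly above naive lungs in this comparison. In the authors' deposited results, which use the tables' grouping, C4b was lower in cold-ischemia grafts (-0.674, adjusted p = 0.00307). Here the adjusted p of C4b over 17 alternatives ran from 0.109 to 0.982.

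In shock grafts 2 of 8 genes were higher and 0 lower, against 39.9% of all tested genes called. C5ar1 was 5.98-fold higher (log2 fold change 2.58 ± 0.33 SE, adjusted p = 0.000186, edgeR) and C3ar1 2.65-fold higher (1.41 ± 0.33 SE, adjusted p = 0.00624). C4b was at 189 ± 93.1 CPM (SD, n = 3) in these grafts and 282 ± 35.3 CPM in naive lungs, which did not pass (log2 fold change -0.58 ± 0.35, adjusted p = 0.205). Without shock replicate 1 the change of C4b was -1.06 with an adjusted p of 0.0247 (edgeR), and over 17 alternatives the adjusted p ran from 0.0247 to 0.987. Cd59a did not pass with the grouping of the titles (-0.53 ± 0.34, adjusted p = 0.242). It was lower with the grouping of the tables (-0.99 ± 0.14, adjusted p = 0.000324, with 46.1% of all genes called), without both disputed libraries (-0.99 ± 0.18, adjusted p = 0.00278, with 42.1% called) and without shock replicate 3 (-0.99 ± 0.31, adjusted p = 0.026). Its adjusted p over 17 alternatives ran from 0.000324 to 0.522. In the authors' deposited results, on the tables' grouping, Cd59a was lower in shock grafts (-0.932, adjusted p = 3.6e-06).

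Shock grafts were compared with cold-ischemia grafts to see what donor shock added. Under the titles none of the 8 tested genes passed, and 0% of all genes did (edgeR's quasi-likelihood test). At an unadjusted p under 0.05 there were 1152 genes, none of them among the 8, and DESeq2 called 6 genes, none of them among the 8. C5ar1 was at 94.0 ± 45.6 CPM in shock grafts and 82.6 ± 19.1 CPM in cold-ischemia grafts (SD, n = 3 each), a log2 fold change of 0.19 ± 0.31. C3ar1 was at 12.9 ± 5.08 and 10.5 ± 3.15 CPM, a log2 fold change of 0.30 ± 0.32. Serping1 was the single gene of the 8 with no overlap between the groups, lower in all shock grafts (log2 fold change -0.26 ± 0.18, adjusted p = 0.702), and 4.91% of all tested genes lay wholly lower in this comparison. With the grouping of the tables the groups overlapped, at 454, 431 and 271 CPM in shock grafts and 434, 437 and 402 CPM in cold-ischemia grafts. Over all genes, the most alike graft pairs were cold-ischemia replicate 1 with shock replicate 3 and cold-ischemia replicate 2 with shock replicate 1. Their chi-square per degree of freedom was 21.8 and 37.1. Each pair shares a group in the tables but not in the titles. Shock replicate 2 was less like its partners in the tables, at 80.8 and 117. Cold-ischemia replicate 2 and shock replicate 3, apart in both groupings, had 60.1. Which grouping is right was not tested.

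Grouped as in the deposited tables, the graft groups differed in Cd59a. The 3 libraries that the tables call shock had 7.11 ± 0.277 CPM and the 3 that they call cold ischemia had 15.1 ± 0.734 CPM (SD, n = 3 each), with no overlap, and 12.4% of all tested genes lay wholly lower in this way. The log2 fold change was -1.09 ± 0.14 (adjusted p = 0.0169, edgeR), and Cd59a was the 1 gene of 8 that passed when 0.783% of all tested genes did. Without both disputed libraries, which left 2 libraries in each graft group, the value was -1.09 with an adjusted p of 0.06 (edgeR), and 0.243% of all genes passed. Over 17 alternatives the adjusted p of Cd59a ran from 0.0169 to 1. The authors' deposited table gives -0.983 with an adjusted p of 1.15e-05 for the same libraries. With this grouping the other 7 tested genes did not pass, among them C4b at 0.69 ± 0.31 (adjusted p = 0.257), C3ar1 at 0.72 ± 0.24 (adjusted p = 0.155) and C3 at 0.65 ± 0.23 (adjusted p = 0.174). For C3 and C4b the sign was opposite to that under the titles, where the log2 fold changes were -0.09 and -0.50.

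**Figure D2:**
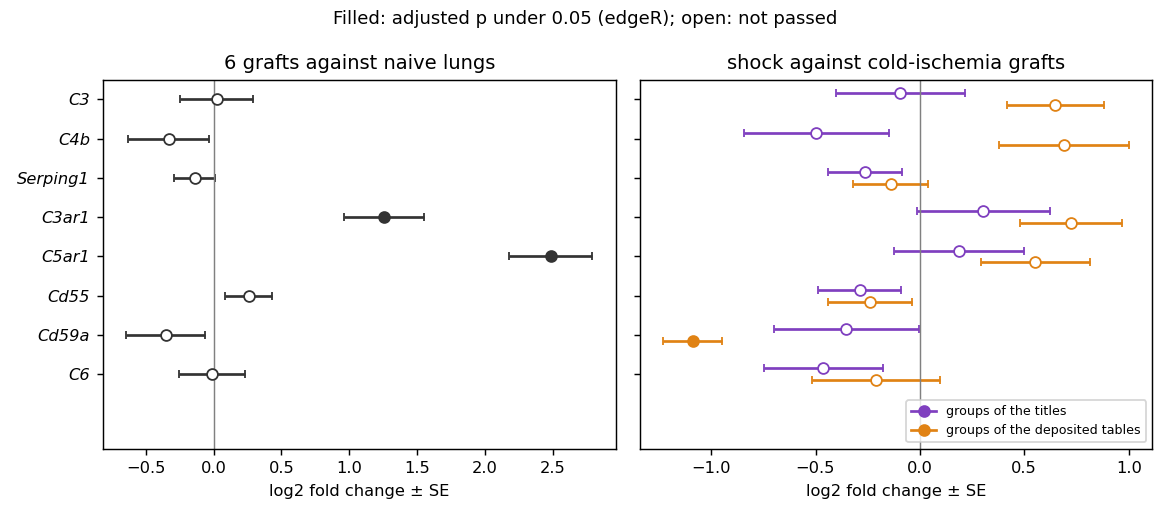
Log2 fold change with its standard error (horizontal axes) of the 8 tested complement genes, for 6 grafts against naive lungs (left) and shock against cold-ischemia grafts (right) under the groups of the titles and of the deposited tables. Filled points passed an adjusted p of 0.05 in edgeR: C5ar1 at 2.49 and C3ar1 at 1.25 on the left, and on the right Cd59a at -1.09 under the tables' groups alone.

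Levels between genes were compared on the deposited FPKM values, which divide reads by gene length. In all 3 naive lungs the order from high to low was Serping1, C3, C4b, Cd55, C6, Cd59a, C5ar1 and C3ar1. Cfb was listed last but is not ranked, because of its overlap with Gm20547. Serping1 was at 291 ± 22.7 FPKM and C3 at 230 ± 33.4 FPKM (SD, n = 3 each), and their ranges of 275 to 317 and 208 to 269 FPKM did not overlap. Cd59a (8.25 to 9.47 FPKM) and C5ar1 (6.24 to 7.80 FPKM) were neighbours whose ranges also stayed apart. The order changed in the grafts.

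C5ar1 stood at rank 7 in each naive lung and at rank 3 or 4 in each of the 6 grafts, above Cd55, C6 and Cd59a. It took 1.05% to 1.31% of the summed FPKM of the 9 genes in naive lungs and 4.46% to 8.82% in grafts. C3 was the most abundant of the 9 in cold-ischemia replicate 2 and shock replicate 1, and Serping1 in the other 7 libraries. The ratio of C5ar1 to C3ar1 was 5.23 to 5.62 in naive lungs and 8.60 to 25.0 in grafts. The ratio of C3 to C4b was 3.72 to 3.85 in naive lungs, 4.06 to 4.43 in cold-ischemia grafts and 5.21 to 6.52 in shock grafts. Under the tables' grouping the graft groups overlapped, with ratios of 4.27, 4.43 and 6.52 in cold-ischemia grafts and 4.06, 5.21 and 5.47 in shock grafts. These ratios were described and not tested.

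**Figure D3:**
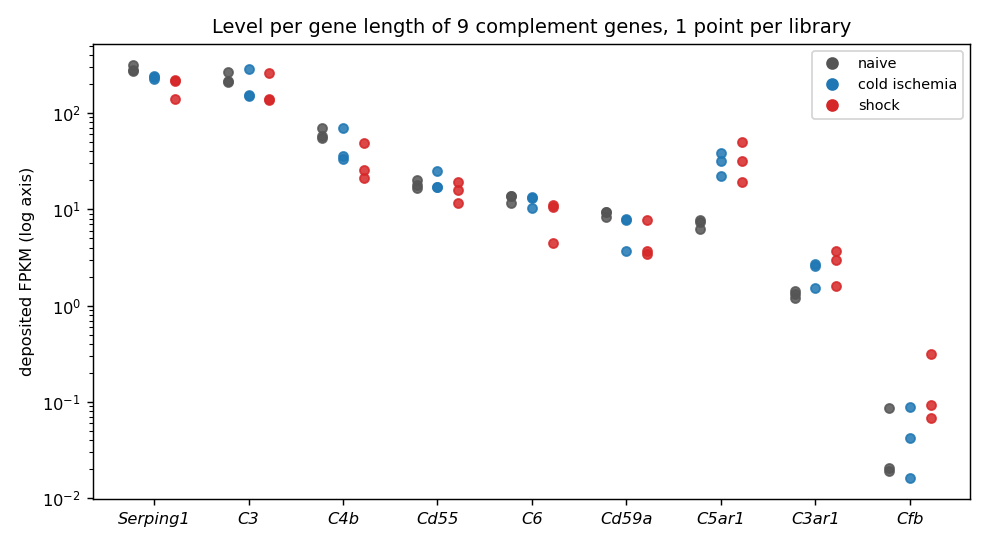
Deposited FPKM (vertical log axis) of the 9 complement genes, ordered by their mean in naive lungs, with 1 point per library coloured by group of the titles. C5ar1 lies below Cd55, C6 and Cd59a in each naive lung, at 6.24 to 7.80 FPKM, and above them in each graft, at 19.0 to 50.4 FPKM. The values serve to compare genes within a library and not libraries. The low values of Cfb are not read as a low level.

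The rest of the system was read from a list of 45 other complement genes, of which 42 are in the tables and 34 passed the filter. In the 6 grafts 5 of the 34 were higher and 7 lower, and 22 did not pass, against 22.1% and 19.7% of all tested genes. Their median log2 fold change was -0.24. With upper-quartile scaling the median of all tested genes moved from -0.05 to -0.25, and the share of higher genes among those called from 52.8% to 34.8%.

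Receptors changed in both directions. Itgam, the alpha chain of complement receptor 3, which binds fragments of C3 on neutrophils and macrophages, had 16.9 to 19.8 CPM in naive lungs and 60.7 to 189 CPM in grafts. Its log2 fold change was 2.41 ± 0.27 (adjusted p = 7.38e-05, edgeR). Itgb2, its beta chain, rose from 92.8 to 197 CPM on average (1.08 ± 0.18, adjusted p = 0.000866). C5ar2, a second receptor of C5a that does not signal through G proteins, fell from 3.61 to 1.97 CPM (-0.92 ± 0.27, adjusted p = 0.0197), opposite to C5ar1. The call of C5ar2 was lost without any 1 of the 3 naive replicates, with an adjusted p of up to 0.0746. Cr2, a receptor for C3 fragments on B cells, fell from 4.43 to 1.14 CPM (-1.95 ± 0.37, adjusted p = 0.00173). These values are of the longer of the entries named Cr2 in the tables. In the authors' deposited results the shorter entry did not pass against naive lungs. It had -1.40 in cold-ischemia grafts (adjusted p = 0.119) and -1.03 in shock grafts (adjusted p = 0.312), on the tables' grouping. Of 9 B cell markers, Cr2 among them, 7 were lower in the grafts, with sums of 92.2 to 130 CPM in naive lungs and 41.1 to 62.9 CPM in grafts, and the part of this in the fall of Cr2 was not tested.

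Of 13 tested genes of the classical and lectin pathways, 0 were higher and 2 lower in the grafts, against 22.1% and 19.7% of all tested genes. C2, the protease that joins C4 in the C3-cleaving enzyme, had 2.90 to 3.89 CPM in naive lungs and 0.399 to 1.77 CPM in grafts (log2 fold change -2.06 ± 0.33, adjusted p = 0.000595, edgeR). C2 overlaps Gm20547 as Cfb does. Colec11, a lectin that starts the lectin pathway, fell from 0.881 to 0.282 CPM, with 2 to 15 reads per graft library (-1.69 ± 0.49, adjusted p = 0.0185), a call lost without naive replicate 2 or 3. The C1q genes C1qa, C1qb and C1qc, made by macrophages, did not pass and had log2 fold changes of -0.20, 0.43 and -0.06.

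All 3 genes listed for the alternative pathway passed, against 41.8% of all tested genes. With the grouping of the tables Cfd and Cfp passed and Cfi did not, against 46.4%. Cfd, the protease factor D that cuts factor B and is made in large amounts by fat cells, had 8.13, 87.3 and 51.7 CPM in naive lungs and 1.20 to 6.69 CPM in grafts. Naive replicate 1 was the nearest to the grafts. The log2 fold change was -3.64 ± 0.60 (adjusted p = 0.000759, edgeR), and without naive replicate 2 it was -2.94 (adjusted p = 0.00556). Cfp, properdin, which stabilises the alternative C3-cleaving enzyme and is stored in neutrophil granules, rose from 11.7 to 19.3 CPM (0.72 ± 0.19, adjusted p = 0.0115), a call lost without naive replicate 1 or 2. Cfi, factor I, which degrades C3b and C4b, fell from 0.943 to 0.443 CPM (-1.19 ± 0.39, adjusted p = 0.0316), and kept its call in 9 of 16 alternatives. The call was lost without naive replicate 2, cold-ischemia replicate 1 or shock replicate 1 or 2. With the grouping of the tables its value was -1.05 with an adjusted p of 0.0898, and over the 16 alternatives the adjusted p ran from 0.0143 to 0.224.

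Terminal components had no call among 3 tested genes, when 41.8% of all tested genes passed. Hc, which encodes C5, the source of C5a, had 479 to 624 CPM in naive lungs and 69.1 to 594 CPM in grafts, with shock replicate 2 the lowest (log2 fold change -0.53 ± 0.42, adjusted p = 0.34). Among 9 tested regulators, 2 were higher and 1 lower, against 22.1% and 19.7% of all tested genes. Cr1l, the rodent membrane regulator Crry, rose from 63.8 to 85.8 CPM (0.43 ± 0.11, adjusted p = 0.00961), and Clu, clusterin, which binds the forming pore, from 191 to 272 CPM (0.51 ± 0.18, adjusted p = 0.0462). Under upper-quartile scaling neither passed, with 0.22 (adjusted p = 0.11) for Cr1l and 0.31 (adjusted p = 0.182) for Clu. Cr1l also lost its call without naive replicate 1, and Clu lost it without any 1 of the 3 naive replicates, cold-ischemia replicates 1 and 3 or shock replicates 2 and 3, keeping it in 7 of 16 alternatives. Cd55b, a near copy of Cd55 with 2 to 18 reads per library, was lower (-1.62 ± 0.55, adjusted p = 0.036), kept its call in 6 of 15 alternatives, losing it without naive replicate 2, cold-ischemia replicate 2 or 3 or shock replicate 1 or 2, and cannot be parted from Cd55 with certainty.

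**Figure D4:**
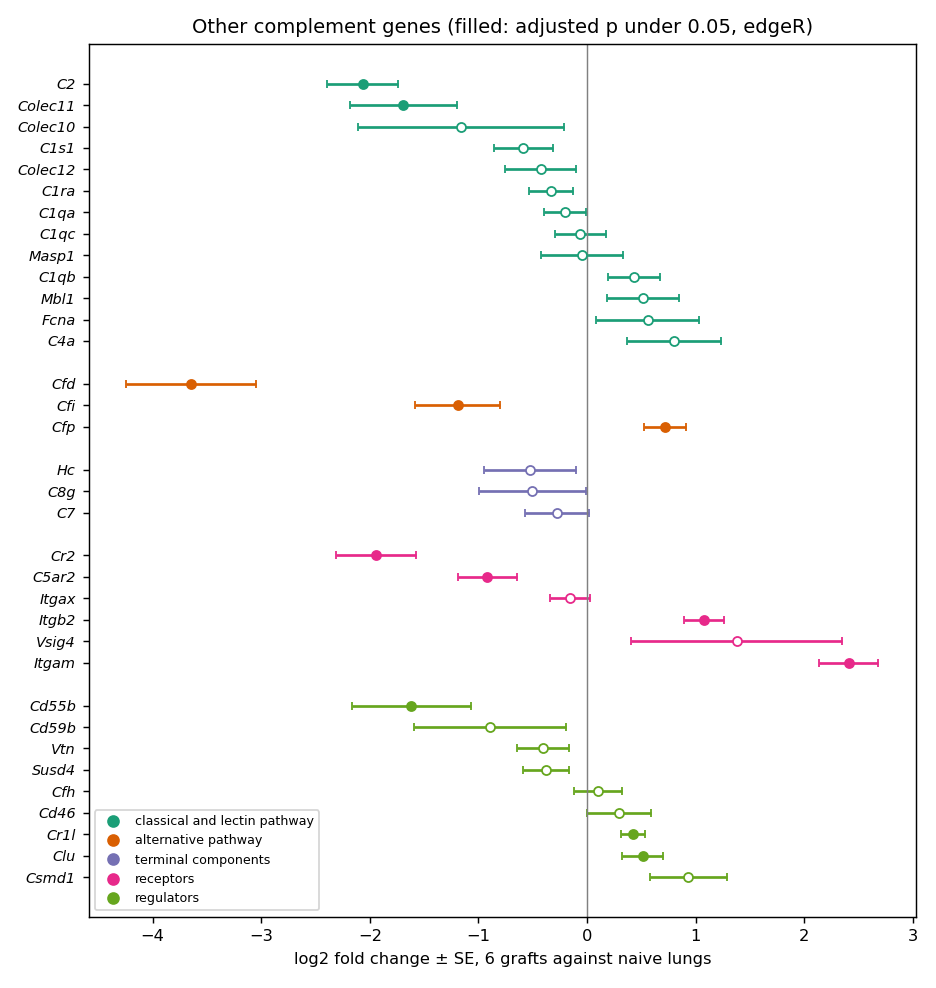
Log2 fold change with its standard error (horizontal axis) of the 34 other tested complement genes in 6 grafts against naive lungs, grouped by role. The 12 filled points passed an adjusted p of 0.05 in edgeR, from Cfd at -3.64 to Itgam at 2.41.

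Each graft group was also compared alone, with 30.6% of all tested genes called in cold-ischemia grafts and 39.9% in shock grafts. Of the 34 genes, cold-ischemia grafts had 3 higher (Cfp, Itgam and Itgb2) and 5 lower (C2, Colec11, Cfd, C5ar2 and Cr2). Shock grafts had 5 higher (C4a, Cfp, Itgam, Itgb2 and Cr1l) and 6 lower (C1s1, C2, Cfd, Cfi, Cr2 and Cd55b). Under the tables' grouping, cold-ischemia grafts had 4 higher, with Cr1l added, and 5 lower, against 34.8% of all tested genes. Shock grafts then had 4 higher and 8 lower, against 46.1%, where C4a and Cfi did not pass and C1ra, Colec10 and Vtn were lower. Colec10, a lectin of the lectin pathway, had 0 reads in cold-ischemia replicate 2 and shock replicates 1 and 2, 3 to 13 reads in the other grafts and 7 to 22 in naive lungs. Without naive replicate 2 the change of Cfd was -2.81 in cold-ischemia grafts and -3.06 in shock grafts, against -3.52 and -3.77 with all libraries. C1s1, the C1s protease of the classical pathway, was at 58.1 CPM in shock grafts and 109.6 CPM in naive lungs (log2 fold change -0.91 ± 0.33, adjusted p = 0.0453, edgeR). It kept its call in 9 of 17 alternatives and lost it without any 1 of the naive or cold-ischemia libraries or shock replicate 1. C4a kept its call in 7 of 17 alternatives and lost it without any 1 of the naive or shock libraries. In cold-ischemia grafts Colec11 kept its call in 13 of 17 alternatives and Cfp in 8, and in shock grafts Cfp and Cfi kept theirs in 15 of 17, Cr1l in 16 of 17 and Cd55b in 11 of 16. Between shock and cold-ischemia grafts 0 of the 34 passed under the titles (edgeR), and 4 had an unadjusted p under 0.05. Grouping the libraries as the authors did, none of the 34 passed in edgeR. Itgam was higher in shock grafts in the authors' deposited results, which use that grouping (log2 fold change 0.797, adjusted p = 0.0368).

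For each of the 8 tested genes, the 2 genes with the most similar profile over the 9 libraries were taken from 12274 others, by the root mean square difference of log2 CPM after centring each gene on its own mean. The distance is in log2 units and a smaller one means more alike. Nearest to C5ar1 were Gpr35 (0.27), a G protein-coupled receptor, and Tlr13 (0.27), a sensor of bacterial RNA in mice. Nearest to C3ar1 were Galnt3 (0.18) and Ssh1 (0.19). The nearest to C3 were Ccdc88a (0.17) and Frrs1 (0.19), to C4b Prrg3 (0.20) and Tmem28 (0.24), and to C6 Cep112 (0.07) and Sh3bgrl (0.12).

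Among the regulators, Nudt19 (0.04) and Trap1 (0.06) were nearest to Serping1, and Frmd6 (0.12) and Nt5dc1 (0.14) to Cd55. Cd59a had Tpst1 (0.14) and Myl12b (0.15) as its nearest. Both were lowest in the libraries in which Cd59a was, which follows from their choice by profile. Tpst1 had 21.0 to 24.4 CPM in cold-ischemia replicate 2 and shock replicates 1 and 2, and 34.6 to 44.4 CPM in the other 6 libraries.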

How the data were processed

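RNA-seq libraries of 9 mouse lungs were analysed from 3 tables that the authors deposited, with 6 libraries in each. Read counts per gene are whole numbers without normalization, per the file headers. The deposited FPKM values divide reads by library total and gene length and were used only to compare levels between genes. The deposited normalized signal, counts over 1 size factor per library, was not tested. The log2 fold change and p-value columns are the authors' deposited results. The submitters' processing notes name mm10 and the tools edgeR, DESeq2, HTSeq, STAR-Fusion and STAR, with no versions or roles. Per the labels' protocols, each library took 1 µg of RNA, was made with a NEBNext Ultra II kit and was read on a NovaSeq as pairs of 150 bases.

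The tables were joined by gene identifier, and repeats of a library did not differ. No pair of libraries agreed within sampling noise (lowest chi-square per degree of freedom 15.0). The quasi-likelihood test of edgeR 4.0.16 (R 4.3.3), two-sided, was run after TMM scaling and filterByExpr on all 9 libraries in 1 fit, tested on simulated data, with Benjamini-Hochberg adjusted p under 0.05 called. The value for 6 grafts is the mean of the 2 graft group means minus the naive mean, and SE is the log2 fold change over the root of F. CPM uses TMM-scaled library sizes. The genes and lists were chosen with earlier results of these data known. All 9 genes, every other complement gene that passed in a comparison, and the 2 genes most like each (mean of at least 2 CPM, prior count 2) are named. Hc and the C1q genes serve as examples of their lists. A further marker of the monocyte and macrophage list is not reported here. Alternatives were RLE and upper-quartile scaling, no filter, DESeq2 1.42.0, the replicate number as a block, the libraries of a comparison alone, the tables' grouping, leaving out both disputed libraries, and leaving out each library.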

Additional observations from a re-analysis of the deposited data

How the results depend on the processing

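Counts of calls moved as follows. Where graft libraries were left out, values given for the 6 grafts are those of the grafts that remained. With the grouping of the tables, 1 of the 8 genes (Cd59a) was lower in the 6 grafts and in shock grafts. The same gene was lower in the remaining grafts and the remaining shock grafts without both disputed libraries. With upper-quartile scaling 1 (Serping1, log2 fold change -0.49, adjusted p = 0.0431) was lower in shock grafts. Between graft groups 1 (Cd59a) was lower with the grouping of the tables. All tested genes called between graft groups were 124 with the grouping of the tables, 39 without both disputed libraries and 6 with DESeq2, against 0. Of the other complement genes, 3 were higher in the 6 grafts with upper-quartile scaling, 5 were higher in cold-ischemia grafts with DESeq2, and 13 (without both disputed libraries) and 10 (upper-quartile scaling) were lower in shock grafts.

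Leaving out each library in turn, the other complement genes called higher and lower in the 6 grafts ranged from 3 to 6 and from 3 to 11, and in shock grafts from 3 to 6 and from 3 to 12. The lowest counts came without naive replicate 2 (for higher genes in the 6 grafts also without naive replicate 1), and the highest counts of lower genes without shock replicate 3. The number of the 8 genes called higher in cold-ischemia grafts ranged from 1 to 2, and the number called lower in shock grafts from 0 to 1.

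Over all alternatives, 474 values of the 8 genes kept direction and side of the threshold, 49 changed sign, 8 gained a call and 5 lost one. No value that changed sign had passed the test. C5ar1 kept its call under every alternative run for the 3 comparisons with naive lungs, and C3ar1 for the 6 grafts and for shock grafts. In the 6 grafts C3 became -0.014 (tables' grouping), -0.072 (without both disputed libraries), -0.18 (upper quartile) and -0.0051 (replicate block), and C6 became 0.0044 (tables' grouping), 0.016 (RLE) and 0.013 (DESeq2). In cold-ischemia grafts C3 became -0.34, -0.29 and -0.12 (tables' grouping, without both disputed libraries, upper quartile), Serping1 0.015 (RLE) and 0.012 (DESeq2), and Cd59a 0.10 (tables' grouping) and 0.11 (without both disputed libraries). In shock grafts C3 became 0.31, 0.14, 0.0076 and 0.0050 (tables' grouping, without both disputed libraries, RLE, DESeq2) and Cd55 -0.11 (upper quartile). Between graft groups C3 became 0.65 and 0.43 and C4b 0.69 and 0.15 (tables' grouping, without both disputed libraries). The cause was not tested.

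Leave-one-out ranges of values that changed sign were, in the 6 grafts, -0.17 to 0.14 for C3 and -0.13 to 0.15 for C6. In cold-ischemia grafts they were -0.29 to 0.25 for C3, -0.49 to 0.12 for C4b, -0.049 to 0.053 for Serping1 and -0.39 to 0.11 for Cd59a. In shock grafts they were -0.41 to 0.14 for C3, -0.073 to 0.28 for Cd55 and -0.48 to 0.075 for C6, and between graft groups -0.48 to 0.27 for C3 and -0.24 to 0.48 for C5ar1.

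The replicate numbers do not pair the samples. Deviations of same-numbered libraries correlated across genes between -0.39 and 0.10, and cold-ischemia replicate 1 correlated best with shock replicate 3. With the replicate number as a block, 2 of the 8 genes were higher in the 6 grafts, as without it, and 6111 genes in all were called, against 6620. The fit on the libraries of a comparison alone gives no separate value for the 6 grafts. Counting error is largest where reads are few, as for Cfb (50 reads over all libraries), Cd55b (68), Colec10 (69), Vsig4 (70), C4a (103) and Colec11 (121).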
